A study of Homo sapiens with 9 samples.

Results

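The changes set side by side here are those of all 13410 genes of the authors' deposited table in its column headed MK and in its column headed A1000, gene by gene: changes found with both treatments, and changes found with one of them. The rule takes every gene of the table, so 13410 of 13410 are members, and no measured value chose them. The cells were MV4-11, a human myelomonocytic leukaemia line with an MLL rearrangement and an activating FLT3 duplication. The labels give 9 libraries after 18 h of treatment, 3 with JB170 at 100 nM (a degrader of Aurora A), 3 with alisertib at 1000 nM and 3 with the vehicle DMSO. A1000 was read as alisertib at 1000 nM from its dose. What MK is, at which dose and time it was given and which libraries it covers is not given in the sources used here, so MK is called by its column heading throughout. Both columns were computed against DMSO, and error in the DMSO libraries moves both the same way; resemblance between the columns is therefore described and not tested. Whether the replicates were separate cultures is not stated, so p-values rest at most on spread between libraries, which may be technical. The spread of a single gene between libraries may not be in them. Values of single libraries were not used here, and the depth is unknown.

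Aurora A is a protein kinase of the centrosome and spindle, activated by binding TPX2, and cells that lack its activity build spindles slowly and linger in G2 and mitosis. Genes of that stage, such as CDC20 and HMMR, are transcribed late in the cycle, once the repressor DREAM no longer holds promoter elements called CHR. ATF4 is the transcription factor of the amino acid and stress response, and it switches on genes such as ASNS and CHAC1 through elements read together with C/EBP proteins. Alisertib inhibits the kinase activity of Aurora A.

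All changes are written as log2 fold changes of treated minus DMSO, a direction inferred from the values because no header settles it. The error of a comparison is larger where the treated cells have fewer reads. Among genes with a mean log2 CPM under 4 (CPM scales counts to library size), the implied error of MK over that of A1000 was above 1 in 89 of 89 genes whose deposited MK value exceeded the deposited A1000 value by at least 0.5, and in 14 of 75 genes where it was lower by as much. Both columns were therefore read as DMSO minus treated and their signs changed. If both turn together, every direction below turns. Markers of myelomonocytic leukaemia cells were in the table for 11 of 11 genes, led by FLT3 at a mean log2 CPM of 9.88, while CD14 at 0.62 and HOXA9 at 1.41 were low. Of 7 lymphoid, 6 erythroid or megakaryocytic and 4 epithelial, neuroblastoma or fibroblast markers listed in the table, the authors' adjusted p called no gene with MK or A1000 (at an unadjusted p under 0.05, 1 of the 17 with MK and 3 of the 17 with A1000), and the lymphoid list reached at most 4.26.

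MK changed few genes by the authors' test and alisertib many, and the error behind the MK column was larger. With calls made where the authors' adjusted p in their deposited table was under 0.05, MK called 63 of 13410 genes (0.47%), 43 higher (0.321%) and 20 lower (0.149%) than DMSO. In the same table, A1000 called 794 genes (5.92%), 415 higher (3.09%) and 379 lower (2.83%). At an unadjusted p under 0.05 there were 1160 genes with MK (545 higher, 615 lower) and 2361 with A1000 (1218 higher, 1143 lower). Over the 9321 genes with a mean log2 CPM of at least 3, the median absolute log2 fold change was 0.13 with MK and 0.12 with A1000, and 211 genes with MK and 295 with A1000 reached 0.5 in the authors' deposited table. The error implied by each deposited fold change and its p-value was 1.35 times as large with MK as with A1000 at the median of those genes. It stood at 0.152 in MK and 0.113 in A1000, about the size of the median absolute changes, so those medians say little about the size of the effects. Called genes had a median absolute change of 0.78 with MK and 0.43 with A1000. Given the errors of the A1000 column, the MK values would have called 640 genes, and given the errors of the MK column, the A1000 values would have called 191 (both added after the data were seen). The exchange by itself raises the MK count and lowers that of A1000, so neither count measures how many genes changed. Why the errors differ was not tested.

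**Figure D1:**
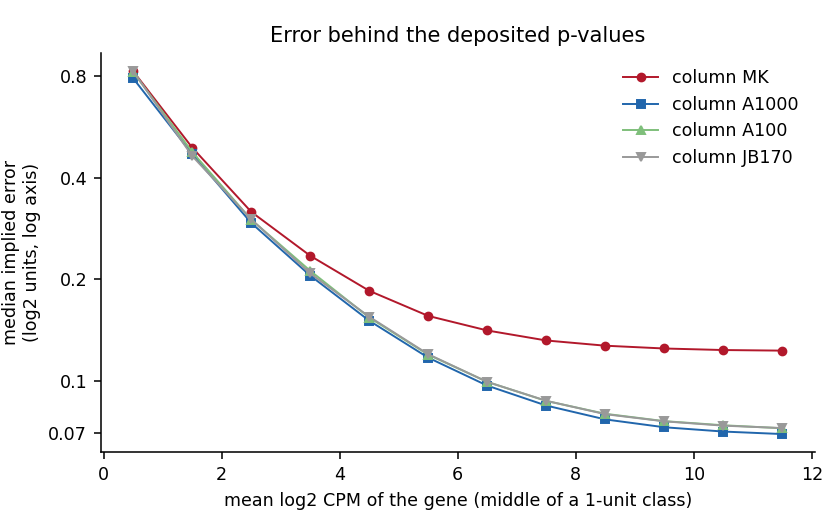
Median implied error of the log2 fold change (y axis, log scale) against the gene's mean log2 CPM (x axis) in the 4 columns of the deposited table. The A1000, A100 and JB170 curves lie together and go on falling, while the MK curve flattens, with a median of 0.1245 in MK and 0.0727 in A1000 at a mean log2 CPM of 9 to 10.

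Of the genes called with MK, 46 were called with A1000 in the same direction (0.343% of all genes), 31 higher (0.231%) and 15 lower (0.112%). They are 73.0% of the MK calls and 5.79% of the A1000 calls. By the authors' test 0 genes were called in opposite directions, and 9 were at an unadjusted p under 0.05 in both columns with opposite directions. A further 17 genes were called with MK and not with A1000 (0.127%), 12 higher (0.0895%) and 5 lower (0.0373%). The genes called with A1000 and not with MK numbered 748 (5.58%), 384 higher (2.86%) and 364 lower (2.71%). A call in one column alone does not show a difference, so the difference MK minus A1000 was tested itself, with the error of the shared DMSO libraries taken off and Benjamini-Hochberg adjustment over all genes. It passed at an adjusted p under 0.05 for 237 genes (1.77%), 115 higher (0.858%) and 122 lower (0.91%) with MK. With the error left undiminished it passed for 11 (0.082%), 7 higher (0.0522%) and 4 lower (0.0298%), and the text says where a gene is one of them. Taking off the DMSO part in this way assumes groups of equal spread, but the implied error was 1.35 times as large with MK. With the larger of both errors, added after the data were seen, the difference passed for 71 genes, 46 higher and 25 lower. By these classes the 237 hold 3 of the 46, 8 of the 17 and 98 of the 748 genes. For 650 of the 748 no difference was shown. The 95% interval of the difference lay within 0.5 of 0 for 361 of the 748 and for 23 of the 46. It also lay there for 6152 genes called in neither column, a class of 128 genes that passed and 12471 that did not. The counts of the 748 and the 46 therefore do not set them apart from uncalled genes. The remaining 128 genes that passed were called in neither column, and 0 of them passed with the undiminished error. Of the 128, 120 had values on opposite sides of 0. Choosing uncalled genes with a passing difference favours that, so it does not show opposite changes.

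**Figure D2:**
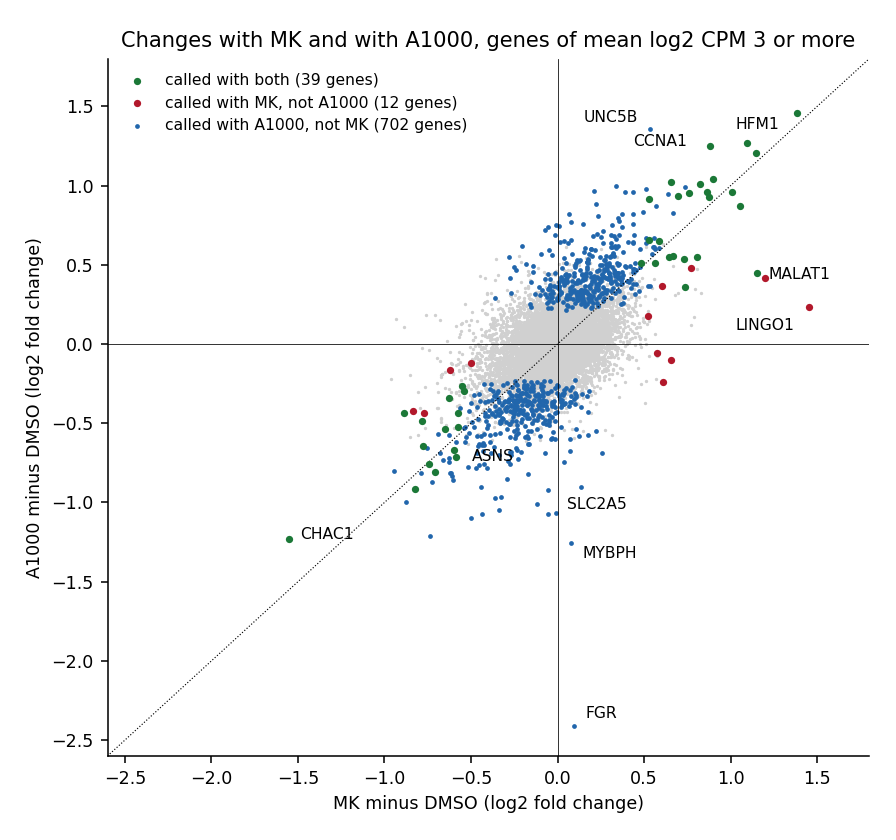
Log2 fold change with A1000 (y axis) against that with MK (x axis), 1 point a gene, for the 9321 genes with a mean log2 CPM of at least 3; the dotted line marks equal changes. Both axes share the DMSO libraries, which alone spreads points along the line. HFM1 and ASNS lie near it, CHAC1 and CCNA1 lie somewhat off it, and FGR, MYBPH, SLC2A5 and LINGO1 lie far from it.

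Of the 31 genes called higher with both treatments, 8 are named by rule. HMOX1, the heme oxygenase induced by oxidative stress, stood at 2.35 with MK and 2.53 with A1000 in the authors' deposited table, the highest MK value among the 46; its mean log2 CPM of 2.44 is below the minimum of 3 for genes named by rule, and it was chosen after its values were seen. BTG2, an antiproliferative gene induced by p53, stood at 1.01 with MK and 0.96 with A1000 in that deposited table by the authors. SAT1, the enzyme that acetylates polyamines for export and breakdown, stood at 1.05 with MK and 0.87 with A1000 in the authors' deposited table. These 3 genes had nearly the same value under both treatments, and none of their differences passed. The germline cyclin CCNA1 stood at 0.88 with MK and 1.25 with A1000 in the authors' deposited table, and the difference of -0.37 (95% interval -0.61 to -0.13, adjusted p = 0.0959) missed the threshold; it passed once centred on transcript length (adjusted p = 0.0336) and with 1 error per gene (0.0202). The major vault protein MVP stood at 0.90 with MK and 1.04 with A1000, and the adaptor BAIAP2 at 0.87 with MK and 0.93 with A1000, per the authors' deposited table. The aminopeptidase ANPEP, a myeloid surface enzyme, stood at 0.66 with MK and 1.02 with A1000 in the authors' deposited table.

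Several of the genes highest with both were also high in every other column of the table, which share the DMSO libraries. HFM1, a meiotic helicase, stood at 1.09 with MK, 1.27 with A1000, 2.08 in A100 and 0.75 in JB170 in the authors' deposited table. The transporter gene SLCO5A1 stood at 0.86 with MK, 0.96 with A1000, 1.68 in A100 and 0.51 in JB170 in the authors' deposited table. ANKRD30BL stood at 1.38 with MK, 1.46 with A1000, 2.31 in A100 and 2.17 in JB170, per the authors' deposited table. RN7SK, a small nuclear RNA that sequesters P-TEFb, stood at 1.14 with MK, 1.20 with A1000, 1.84 in A100 and 0.63 in JB170 in the authors' deposited table. All 4 genes lay above 0 in all 4 columns. RN7SK alone was not called in JB170 by the authors' adjusted p. The signs of the A100 and JB170 columns are inferred too, and the check of direction given above did not cover them. The A100 sign was changed like those of MK and A1000, while JB170 was kept as deposited. With the JB170 sign changed as well, these 4 genes would lie below 0 in that column. The part of the DMSO libraries in these values was not tested.

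The genes of G2 and mitosis called with both were CDC20, which turns on the anaphase-promoting ligase, and HMMR, a spindle protein that helps place TPX2 and Aurora A. CDC20 stood at 0.48 with MK (authors' adjusted p = 0.0473) and 0.51 with A1000 (1.34e-07) in the authors' deposited table, a difference of -0.03 (95% interval -0.24 to 0.18). HMMR stood at 0.53 with MK (authors' adjusted p = 0.0409) and 0.66 with A1000 (2.13e-09) in the authors' deposited table, a difference of -0.13 (-0.36 to 0.11). Their promoters are shown because both genes rose with both treatments and because the CHR and CCAAT elements are known from promoters of this stage. The sequences are the 250 bases before the start, 5′ to 3′ on the gene's strand, from RefSeq on GRCh38.p14. CDC20 is at chr1:43358731-43358980 on the plus strand and HMMR at chr5:163460382-163460631 on the plus strand. Capitals mark TTTGAA (CHR) and CCAAT on either strand.
CDC20: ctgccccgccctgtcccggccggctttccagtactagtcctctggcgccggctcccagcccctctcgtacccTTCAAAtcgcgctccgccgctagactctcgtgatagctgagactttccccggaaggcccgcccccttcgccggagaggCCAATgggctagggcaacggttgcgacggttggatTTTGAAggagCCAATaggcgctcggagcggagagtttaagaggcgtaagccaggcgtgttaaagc
HMMR: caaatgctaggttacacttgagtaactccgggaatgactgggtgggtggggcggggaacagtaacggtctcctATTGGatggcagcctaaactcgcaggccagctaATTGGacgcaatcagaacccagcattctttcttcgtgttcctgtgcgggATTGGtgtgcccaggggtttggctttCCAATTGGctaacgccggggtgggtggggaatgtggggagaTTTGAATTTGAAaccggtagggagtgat
CDC20 holds TTTGAA 65 bases before the start, its reverse form TTCAAA 178 before it, and CCAAT at 100 and 55. HMMR holds TTTGAA at 28 and 22 bases before the start and CCAAT, in either orientation, at 177, 144, 95, 69 and 66, the last 2 overlapping. TTTGAA occurs in 8.75% and CCAAT in 34.9% of the 9054 promoters of the same length that belong to genes of the table. A match of letters is a description of these windows and not evidence of binding.

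AURKA itself and its partners showed the same closeness without passing in MK. AURKA stood at 0.48 with MK (authors' adjusted p = 0.0598) and 0.49 with A1000 (1.59e-06) in the authors' deposited table, a difference of -0.01 (95% interval -0.23 to 0.21). PLK1, the mitotic kinase that Aurora A activates, stood at 0.45 with MK (0.0799) and 0.51 with A1000 (4.01e-08) by the authors' adjusted p in the deposited table. The mitotic cyclin CCNB1 stood at 0.43 with MK (0.107) and 0.41 with A1000 (1.62e-05) by the authors' adjusted p in the deposited table, a difference of 0.01 (-0.19 to 0.22). TPX2, the activator of Aurora A, stood at 0.08 with MK and 0.19 with A1000 in the authors' deposited table, and AURKB, its relative at the centromere, at -0.05 with MK and -0.10 with A1000, with no call in either column. For AURKA, PLK1 and CCNB1 the interval of the difference lay within 0.3 of 0.

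Over all 82 measured genes of the G2/M and mitosis list, MK called 2 higher (CDC20 and HMMR) and 1 lower, and A1000 called 28 higher and 1 lower in the authors' deposited table. The calls are 3.66% of the list with MK and 35.4% with A1000, against 0.47% with MK and 5.92% with A1000 over all genes. The median change was 0.06 with MK and 0.16 with A1000, against -0.0006 with MK and 0.0061 with A1000 over all genes. The difference passed for 6 of the 82 (7.32%, against 1.77% over all genes), all lower with MK. They were KIF2C, NCAPD2, ASPM, CENPF, CKAP5 and MKI67, and 5 of these 6 were named here after their values were seen. KIF2C, a kinesin that takes microtubules apart, stood at 0.09 with MK and 0.57 with A1000 in the authors' deposited table, a difference of -0.48 (-0.74 to -0.23, adjusted p = 0.0229). MKI67, the proliferation marker of the chromosome surface, stood at -0.50 with MK and -0.12 with A1000 in the authors' deposited table, a difference of -0.38 (-0.58 to -0.18, adjusted p = 0.0221). CENPF, a kinetochore protein, stood at -0.15 with MK and 0.23 with A1000 in the authors' deposited table. Once the difference was centred on transcript length KIF2C kept its call and the other 5, with transcripts of 5548 bases or more, lost theirs. The S phase and DNA replication list had 68 measured genes. A1000 called 2 higher and 10 lower (17.6%) in the authors' deposited table, while MK called 0 by the authors' test, with 6 lower and 0 higher at an unadjusted p under 0.05. Over all 13410 genes, 615 were lower and 545 higher with MK at that unadjusted p. The medians of the S phase list were -0.08 with MK and -0.09 with A1000. TYMS, thymidylate synthase, stood at -0.49 with MK (authors' adjusted p = 0.121) and -0.49 with A1000 (0.000688) in the authors' deposited table.

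The genes called lower with both included 2 targets of ATF4, CHAC1 and ASNS. CHAC1, which breaks down glutathione, stood at -1.55 with MK and -1.23 with A1000 in the authors' deposited table, the lowest MK value among the 63 called genes. The difference of -0.32 (95% interval -0.73 to 0.08) did not pass. ASNS, asparagine synthetase, stood at -0.59 with MK (authors' adjusted p = 0.0102) and -0.71 with A1000 (2.02e-11) in the authors' deposited table, a difference of 0.13 (-0.10 to 0.36). Their promoters are shown because both genes fell with both treatments and because a composite element of ATF4 and C/EBP is known from genes of this response. The windows are as above, at chr15:40953221-40953470 on the plus strand for CHAC1 and at chr7:97872409-97872658 on the minus strand for ASNS. Capitals mark TGATGNAAN, where N is any base, on either strand.
CHAC1: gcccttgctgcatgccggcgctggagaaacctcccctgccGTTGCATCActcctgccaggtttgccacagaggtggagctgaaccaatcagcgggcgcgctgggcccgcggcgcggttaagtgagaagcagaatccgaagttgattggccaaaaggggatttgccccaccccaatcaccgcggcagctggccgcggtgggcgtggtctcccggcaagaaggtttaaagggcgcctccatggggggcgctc
ASNS: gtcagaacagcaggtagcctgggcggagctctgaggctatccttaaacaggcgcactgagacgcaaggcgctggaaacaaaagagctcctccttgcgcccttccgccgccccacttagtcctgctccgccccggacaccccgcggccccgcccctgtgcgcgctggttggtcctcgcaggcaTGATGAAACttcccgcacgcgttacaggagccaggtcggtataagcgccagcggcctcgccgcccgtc
The match starts 210 bases before the start in CHAC1, where it reads in reverse, and 68 bases before it in ASNS. A second RefSeq start of ASNS has no match in its window. TGATGNAAN occurs in 1.65% of the 9054 promoters.

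The list that joins ATF4 targets with genes of the unfolded protein response had 58 measured members. In the authors' deposited table MK called 2 lower (ASNS and CHAC1) and 0 higher (3.45%, against 0.47% over all genes). At an unadjusted p under 0.05 MK had 22 lower and 2 higher, against 615 lower and 545 higher over all 13410 genes. A1000 called 22 lower and 1 higher (39.7%, against 5.92% over all genes) in the authors' deposited table. The median was -0.17 with MK and -0.22 with A1000. ATF4 itself stood at -0.33 with MK and -0.50 with A1000 in the authors' deposited table, called with A1000 alone, with a difference of 0.17 (-0.03 to 0.37) that did not pass. TRIB3, a pseudokinase that ATF4 induces, stood at -0.44 with MK and -0.58 with A1000, called with A1000 alone in the authors' deposited table. DDIT4, an inhibitor of mTORC1, stood at -0.42 with MK and -0.76 with A1000, called with A1000 alone in the authors' deposited table. The difference passed for 4 genes of the list (6.9%, against 1.77% over all genes), which do not belong to its amino acid arm alone. HSPA5, the chaperone of the endoplasmic reticulum, stood at 0.01 with MK and -0.35 with A1000 in the authors' deposited table, a difference of 0.36 (0.16 to 0.56, adjusted p = 0.0336). CEBPB, a C/EBP factor of myeloid cells, stood at 0.12 with MK and -0.58 with A1000 in the authors' deposited table, a difference of 0.70 (0.43 to 0.97, adjusted p = 0.000239). SDF2L1, a partner of that chaperone, also passed higher with MK. SLC7A11, which imports cystine, stood at -0.89 with MK and 0.11 with A1000, with no call in either column of the authors' deposited table, a difference of -0.995 (-1.49 to -0.50, adjusted p = 0.013). SDF2L1 and SLC7A11 lost their call once centred on transcript length. ATF4, HSPA5, CEBPB and SDF2L1 were named after their values were seen.

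Other genes called lower with both included SPON2, a secreted matrix protein, at -0.74 with MK and -0.76 with A1000 in the authors' deposited table. The zinc finger gene HIVEP3 stood at -0.71 with MK and -0.81 with A1000, and the linker histone gene H1FX at -0.60 with MK and -0.67 with A1000, per the authors' deposited table. BACE1, the protease that cuts the amyloid precursor, stood at -0.65 with MK and -0.53 with A1000 in the authors' deposited table. BZRAP1 stood at -0.78 with MK and -0.64 with A1000, and ANKRD18DP at -0.82 with MK and -0.92 with A1000, per the authors' deposited table. None of these 6 differences passed.

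**Figure D3:**
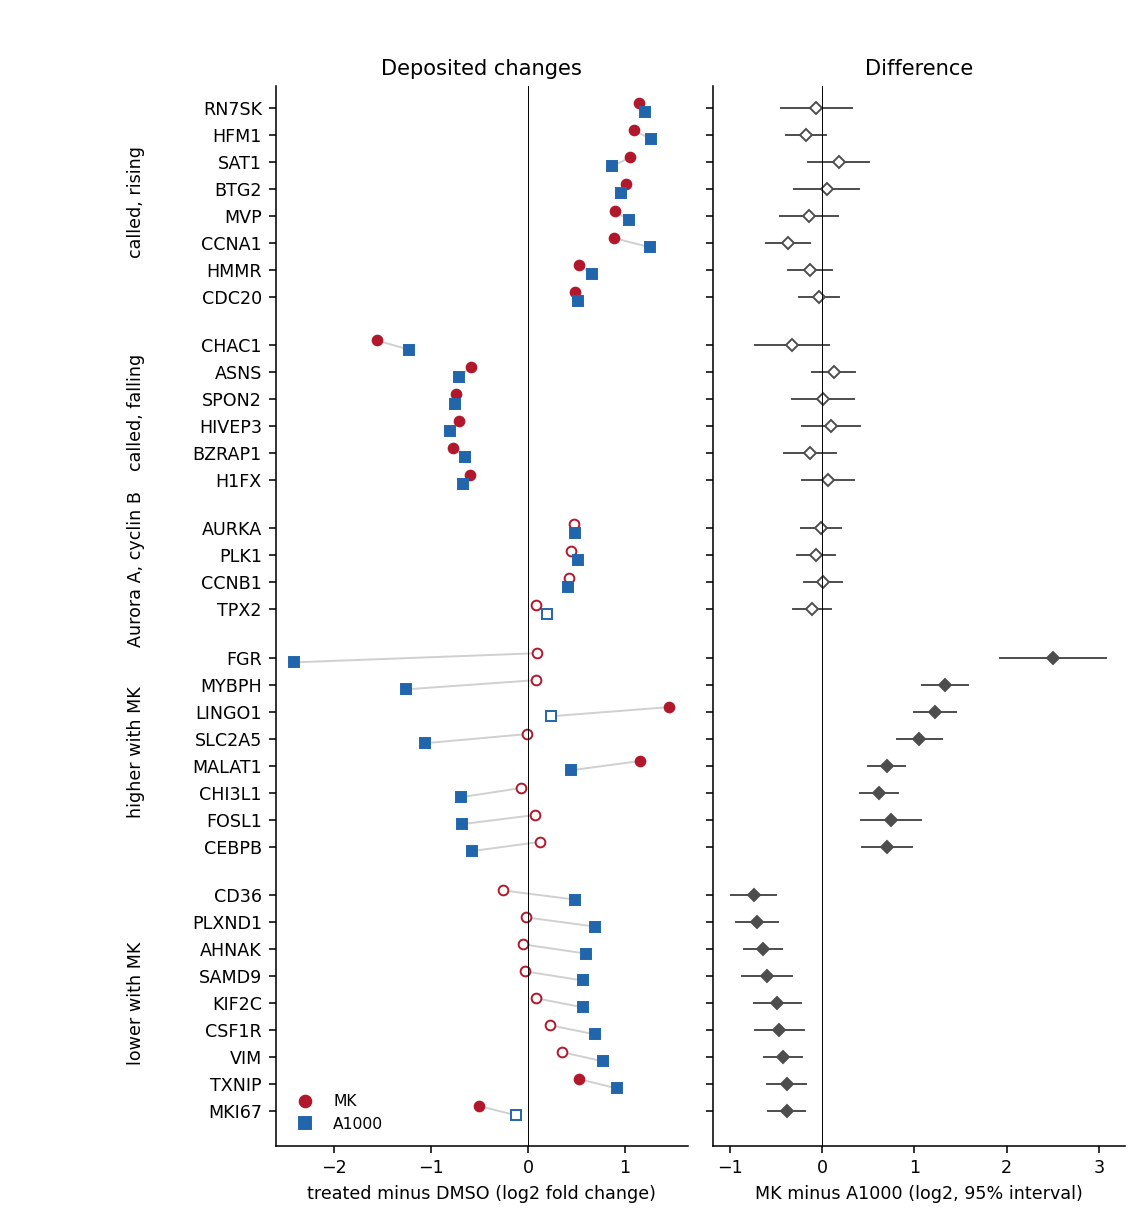
Left, log2 fold change of treated minus DMSO (x axis) for genes named in the text, MK as red circles above and A1000 as blue squares below, filled where the authors' adjusted p is under 0.05. Right, the difference MK minus A1000 (log2, x axis) with its 95% interval, filled where its adjusted p is under 0.05. Most genes called with both lie near 0 on the right, but MALAT1, TXNIP and CCNA1, also called with both, lie off it. FGR lies farthest from 0.

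The rule names the 8 largest passing differences higher with MK among genes with a mean log2 CPM of at least 3. Of these, 6 fell with A1000 and were not called with MK, 1 was called with MK alone and 1 in neither column. FGR, a SRC family kinase of myeloid cells, stood at 0.09 with MK and -2.41 with A1000 in the authors' deposited table, a difference of 2.50 (95% interval 1.92 to 3.08, adjusted p = 9.37e-14). MYBPH, a myosin-binding protein gene, stood at 0.08 with MK and -1.25 with A1000 in the authors' deposited table, a difference of 1.33 (1.08 to 1.58, adjusted p = 5.23e-22). SLC2A5, the fructose transporter, stood at -0.01 with MK and -1.07 with A1000 in the authors' deposited table, a difference of 1.05 (0.81 to 1.30, adjusted p = 9.37e-14). CHI3L1, a secreted glycoprotein of macrophages, stood at -0.07 with MK and -0.69 with A1000 in the authors' deposited table, a difference of 0.62 (0.41 to 0.82, adjusted p = 4.05e-06). CHI3L1 is outside the 8 and was named with its values in view. All 4 are among the 11 that passed with the undiminished error. FAM20C, a kinase of secreted proteins, stood at 0.13 with MK and -0.90 with A1000 in the authors' deposited table, and GYPC, a membrane glycoprotein gene, at 0.25 with MK and -0.69 with A1000. APBB1 stood at -0.06 with MK and -1.07 with A1000, and HBEGF, a ligand of the EGF receptor, at 0.32 with MK and -0.58 with A1000 without a call in either column, per the authors' deposited table. In all, 51 of the 98 genes called with A1000 alone whose difference passed had fallen with A1000.

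LINGO1, a membrane protein known from neurons, had the largest rise with MK among genes the difference test separated with the undiminished error. It stood at 1.45 with MK (authors' adjusted p = 4.61e-23) and 0.23 with A1000 (0.149) in the authors' deposited table, a difference of 1.22 (95% interval 0.99 to 1.45, adjusted p = 5.23e-22). The column A100, which has no group in the labels, holds LINGO1 at 1.28 in the authors' deposited table. MALAT1, an abundant nuclear long noncoding RNA, was called with both and stood at 1.15 with MK and 0.45 with A1000 in the authors' deposited table, a difference of 0.70 (0.50 to 0.90, adjusted p = 3.08e-08). C5orf62 stood at 0.61 with MK and -0.24 with A1000 in the authors' deposited table, a difference of 0.84 (0.58 to 1.11, adjusted p = 6.37e-07). These 3 also passed with the undiminished error, and the 2 after LINGO1 were chosen after their values were seen. IGF2R, the receptor that carries lysosomal enzymes, was called with both and stood at 0.74 with MK and 0.36 with A1000 in the authors' deposited table, a difference of 0.38 (0.17 to 0.58, adjusted p = 0.0255). Of the 17 genes called with MK alone, 6 passed higher with MK: LINGO1, C5orf62, the histone gene HIST1H2AC, the immediate early gene IER3, the tetraspanin CD82 and LRG1, a secreted glycoprotein of neutrophils. CD82 stood at 0.58 with MK and -0.06 with A1000, and LRG1 at 0.65 with MK and -0.10 with A1000, per the authors' deposited table. The 2 that passed lower were MKI67 and SCDP1. IGF2R, CD82, LRG1 and SCDP1 were named after their values were seen.

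In the opposite direction, 47 of those 98 genes had risen with A1000, with lower values in MK. CD36, a scavenger receptor of monocytes, stood at -0.25 with MK and 0.48 with A1000 in the authors' deposited table, a difference of -0.74 (95% interval -0.98 to -0.50, adjusted p = 3.38e-06). AHNAK, a very large scaffold protein, stood at -0.05 with MK and 0.59 with A1000 in the authors' deposited table, a difference of -0.64 (-0.84 to -0.44, adjusted p = 1.16e-06). The semaphorin receptor PLXND1 stood at -0.02 with MK and 0.69 with A1000, and MEGF6 at -0.07 with MK and 0.72 with A1000, per the authors' deposited table. These 4 are the ones that passed lower with the undiminished error, and they were chosen after their values were seen. UNC5B, a netrin receptor, stood at 0.53 with MK and 1.35 with A1000 in the authors' deposited table, a difference of -0.82 (-1.24 to -0.41, adjusted p = 0.0144). VIM, the intermediate filament vimentin, stood at 0.35 with MK and 0.77 with A1000 in the authors' deposited table, a difference of -0.42 (-0.63 to -0.22, adjusted p = 0.00984). TXNIP, which binds thioredoxin and limits glucose uptake, was called with both and stood at 0.53 with MK and 0.91 with A1000 in the authors' deposited table, a difference of -0.38 (-0.60 to -0.17, adjusted p = 0.034). LHFP stood at -0.93 with MK and 0.15 with A1000 without a call in either column of the authors' deposited table, a difference of -1.09 (-1.55 to -0.62, adjusted p = 0.0017). The other genes the rule names here, ZNF362, SEPN1, ZNF211, RAB5B, ZNF334 and MFSD6, were likewise called in neither column. SEPN1 and ZNF334 lost the call of their difference once centred on transcript length.

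Maturation genes of monocytes and granulocytes moved in both directions with alisertib, and few were called with MK. Shares over all genes were 0.47% called with MK, 5.92% with A1000 and 1.77% in the difference. At an unadjusted p under 0.05, 545 of all 13410 genes were higher and 615 lower with MK. Of 51 measured maturation genes, MK called 3 higher (MVP, ANPEP and, outside the rule, CXCR4; 5.88%), and A1000 called 10 higher and 5 lower (29.4%) in the authors' deposited table. Differences passed for 5 of the 51 (9.8%), FGR, CHI3L1 and CEBPB, higher with MK, and CD36 and CSF1R, lower with MK. CSF1R, the receptor for macrophage colony stimulating factor, stood at 0.23 with MK and 0.69 with A1000 in the authors' deposited table, a difference of -0.46 (-0.73 to -0.20, adjusted p = 0.0394), and lost its call once centred on transcript length. Of 21 genes of azurophil granules and immature myeloid cells, MK called 0 by the authors' test (1 higher and 3 lower at an unadjusted p under 0.05), while A1000 called 5 lower (23.8%). Of the 21, 2 differences passed (9.52%), both higher with MK. PRTN3, proteinase 3 of those granules, stood at -0.16 with MK and -0.55 with A1000 in the authors' deposited table, a difference of 0.39 (0.19 to 0.59, adjusted p = 0.0141), which was lost once centred on transcript length. SRGN, the granule proteoglycan serglycin, stood at 0.43 with MK and -0.08 with A1000 in the authors' deposited table, a difference of 0.51 (0.32 to 0.71, adjusted p = 0.000198). SRGN was named after its values were seen. Of 19 genes of the HOXA and MEIS1 programme, A1000 called 1 higher and 2 lower (15.8%), and MK called 0 by the authors' test (5 lower at an unadjusted p under 0.05).

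Signalling and stress lists held a few separated genes each, beside shares over all genes of 0.47% called with MK, 5.92% with A1000 and 1.77% in the difference. At an unadjusted p under 0.05, 545 of all 13410 genes were higher and 615 lower with MK. Of 44 immediate early genes and outputs of ERK, MK called 2 higher (IER3 and BTG2), and A1000 called 2 higher and 6 lower (18.2%) in the authors' deposited table. Differences passed for IER3, IER2 and FOSL1, all higher with MK. IER3 passed narrowly, with an adjusted p of 0.0486. It lost its call centred on transcript length, with the running median error or with the larger of both errors, and its mean log2 CPM was low at 1.73. FOSL1, an AP-1 subunit, stood at 0.07 with MK and -0.68 with A1000 in the authors' deposited table, a difference of 0.75 (0.43 to 1.08, adjusted p = 0.00203). Of 30 NF-kB targets and inflammatory mediators, MK called 1 higher (IL1B), and A1000 called 2 higher and 1 lower (3 of 30) in the authors' deposited table. IL1B stood at 2.36 with MK and, without a call, at 1.55 with A1000 in that table. Its mean log2 CPM was very low at 0.44, and its difference did not pass. Separated from A1000 were RELB, NFKBIE and CCL2, each higher with MK and called in neither column; RELB and NFKBIE lost their calls once centred on transcript length. CCL2, a monocyte chemokine, stood at 0.66 with MK and -1.09 with A1000 in the authors' deposited table, at a low mean log2 CPM of 1.85. Of 23 heat shock genes, A1000 called 2 lower (8.7%) in the authors' deposited table and MK 0 by the authors' test (1 higher and 1 lower at an unadjusted p under 0.05). Differences passed for the chaperone HSP90AA1 and its partner CHORDC1, both higher with MK; HSP90AA1 lost its call once centred on transcript length. CHORDC1 stood at 0.04 with MK and -0.38 with A1000 in the authors' deposited table. The medians of the heat shock list were 0.07 with MK and -0.12 with A1000. IER2, RELB, NFKBIE, CCL2 and HSP90AA1 were named after their values were seen.

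For the lists that follow, the shares called over all genes were again 0.47% with MK and 5.92% with A1000. At an unadjusted p under 0.05, MK had 545 higher and 615 lower over all genes. Of 57 genes of ribosome biogenesis and MYC targets, A1000 called 6 lower (10.5%) in the authors' deposited table and MK 0 by the authors' test (3 higher and 1 lower at an unadjusted p under 0.05), with medians of 0.02 with MK and -0.13 with A1000. The difference passed for 1, LYAR (1.75%, against 1.77% over all genes), which lost its call once centred on transcript length. At an unadjusted p under 0.05 it was 17 higher and 2 lower with MK, against 846 higher and 934 lower over all 13410 genes. MYC stood at -0.19 with MK and -0.26 with A1000, called with A1000 alone in the authors' deposited table, a difference of 0.08 (-0.13 to 0.28). Of 51 interferon genes, A1000 called 6 higher (11.8%) in the authors' deposited table and MK 0 by the authors' test (9 higher and 0 lower at an unadjusted p under 0.05). SAMD9, an antiviral gene, was the interferon gene whose difference passed, at -0.03 with MK and 0.56 with A1000 in the authors' deposited table. LYAR and SAMD9 were named after their values were seen. Of 21 BCL2 family genes, A1000 called 4 higher (4 of 21) in the authors' deposited table and MK 0 by the authors' test (4 higher at an unadjusted p under 0.05), with medians of 0.14 with MK and 0.12 with A1000. BMF, a BH3-only killer of the family, stood at 0.64 with MK (authors' adjusted p = 0.0541) and 0.94 with A1000 (1.96e-09) in the authors' deposited table. Of 33 p53 targets, MK called BTG2 (3.03%), and A1000 called 2 higher and 1 lower (9.09%, against 5.92% over all genes) in the authors' deposited table. MDM2, the ubiquitin ligase that p53 induces, stood at -0.22 with MK and 0.06 with A1000, with no call in either column of the authors' deposited table. Of 37 glycolysis and hypoxia genes, MK called TXNIP higher and ALDOC lower, and A1000 called 2 higher and 5 lower (18.9%) in the authors' deposited table. Of 29 genes of cholesterol synthesis, A1000 called 3 lower (10.3%) in the authors' deposited table and MK 0 by the authors' test (1 higher and 8 lower at an unadjusted p under 0.05).

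**Figure D4:**
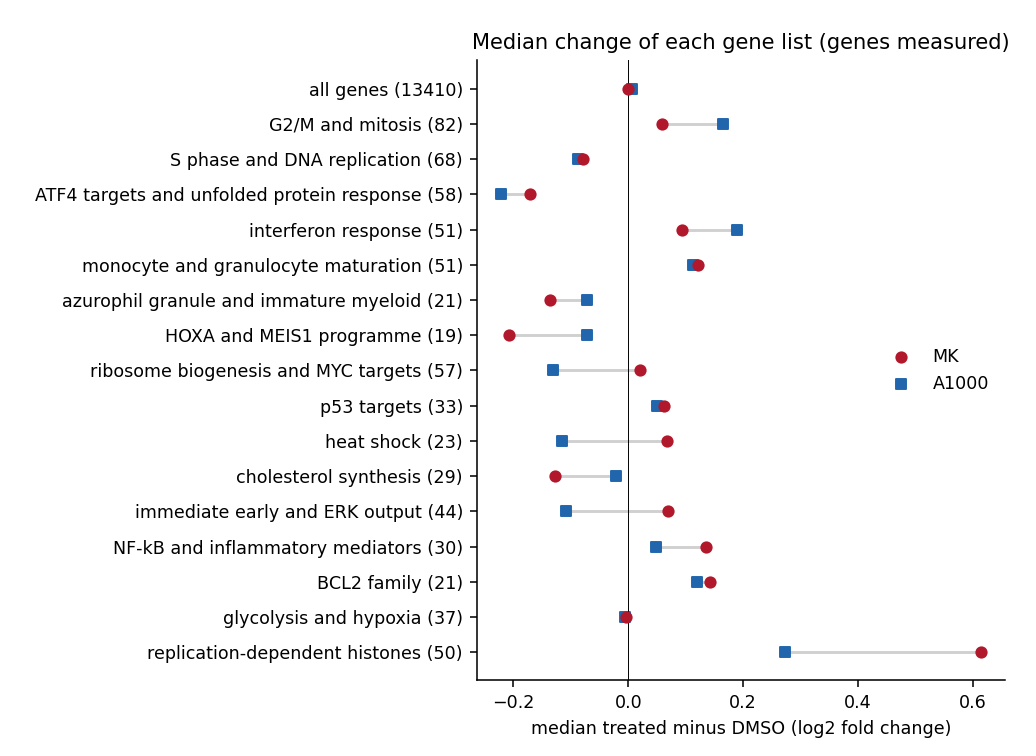
Median log2 fold change of treated minus DMSO (x axis) over the measured genes of each list, whose number is in brackets, with MK as red circles and A1000 as blue squares and all genes in the top row. The ATF4 list lies below 0 and the histones above 0 under both treatments, and the heat shock, ribosome biogenesis and immediate early lists have MK above 0 and A1000 below 0; no list was tested as a whole.

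The libraries were made by poly(A) selection, and the table also holds RNAs that lack a poly(A) tail. The 50 measured replication-dependent histone genes are made in S phase, mainly as transcripts that end in a stem-loop. Of these, MK called 6 higher in the authors' deposited table (12%, against 0.47% over all genes). A1000 called 4 of them higher and 2 lower in that table (12%, against 5.92% over all genes). The medians of the 50 were 0.61 with MK and 0.27 with A1000, at a median mean log2 CPM of 0.71, so most rest on few reads. HIST1H2BD stood at 1.70 with MK and 1.57 with A1000 in the authors' deposited table. HIST1H4C went the other way, at -0.51 with MK without a call and -2.01 with A1000 (authors' adjusted p = 0.00836) in the authors' deposited table. The members were thus not uniform, and 10 of the 50 with MK and 17 of the 50 with A1000 lay below 0. HIST1H2AC stood at 1.20 with MK and 0.42 with A1000 in the authors' deposited table, a difference of 0.78 (0.48 to 1.08, adjusted p = 0.000239). Of 8 other RNAs, listed as lacking a poly(A) tail, the same 3 (37.5%) were called higher in both columns: RN7SK, RN28S1 and RMRP. RN28S1, ribosomal RNA, stood at 1.25 with MK and 1.44 with A1000, and RMRP, the RNA of the RNase MRP particle, at 1.04 with MK and 0.97 with A1000, per the authors' deposited table. The part of RNA quality or of poly(A) selection in these values was not tested, nor which transcript forms of the histone genes were read.

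The differences between MK and A1000 went with transcript length. The longest annotated transcript (GENCODE v29, 13197 genes matched) had a median of 2049 bases among the 115 genes higher with MK and 6515 bases among the 122 genes lower with MK, against 3510 bases over all genes. Genes with a mean log2 CPM of at least 3 were put into 10 length classes of about equal size. In the shortest class the median change was 0.11 with MK and -0.02 with A1000, and 28 differences passed higher and 1 lower with MK. In the longest class the medians were -0.08 with MK and 0.04 with A1000, and 3 differences passed higher and 43 lower. Once each difference was centred on the running median of genes of like length, an alternative added after the data were seen, 134 genes passed, 70 higher and 64 lower with MK, of which 114 were among the 237. The 11 genes that passed with the undiminished error all remained. The part of RNA quality in the length pattern was not tested.

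**Figure D5:**
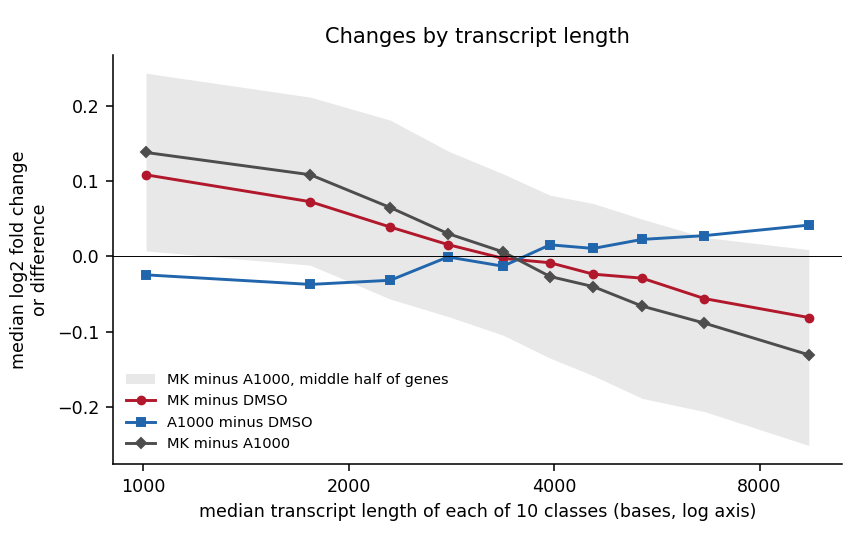
Median log2 value (y axis) in 10 classes of genes ordered by the length of the longest transcript (x axis, median length in bases, log scale), for MK, A1000 and their difference. The shaded band spans the quartiles of the genes' differences. The median difference is 0.14 in the shortest class and -0.13 in the longest.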

How the data were processed

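RNA was measured in MV4-11 cells. Libraries were directional and poly(A)-selected (NEBNext kits), after RNA purification on miRNeasy columns with a DNase step, per the labels' protocols. The submitters' processing notes list Bowtie2 2.3.2, FastQC, TopHat2 2.1.1 and the genome build hg19, with no role or order. The sources used here do not give the counting, normalization, test or filter. The deposited table gives the authors' log2 fold change, p-value and adjusted p-value per gene for 4 comparisons with DMSO, per the file headers, and a mean log2 CPM whose libraries are not named. Of 13485 rows, 80 with 5 repeated identifiers were reduced to 1 each, which left 13410 genes. The authors' adjusted p-values correspond to 16812 tests, of which 3402 were not analysed here. Among those not analysed here are CDKN1A and genes of the mitochondrial genome.

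From these values the MK, A1000 and A100 columns were multiplied by -1 and JB170 was kept, a direction that is inferred. The implied error of a column is the absolute log2 fold change over the absolute z of its p-value, where that z is at least 1, and otherwise the running median of genes at a like level (60 bins of mean log2 CPM). The error of MK minus A1000 is the square root of the mean of both squared errors, which takes off the shared DMSO part if groups have equal size and spread. That condition was not met, since the implied error was 1.35 times as large with MK, so the 95% intervals may be too narrow. The number of MK libraries is not known. Two-sided normal p-values were adjusted by the Benjamini-Hochberg method over 13410 genes and called under 0.05. Within classes of mean log2 CPM the implied error hardly varied between genes (at 9 to 9.5, from 0.1243 to 0.1254 in MK between the 5th and the 95th percentile), so spread of a single gene between libraries may not be in the deposited p-values.

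Genes were named by rule: with a mean log2 CPM of at least 3, the 8 in each direction called with both treatments with the largest smaller change, the 8 in each direction with the largest passing difference, the 3 called members with the largest change of each list, and a fixed set around Aurora A. The comparison, the lists and the rule were chosen with earlier results of these data known. Alternatives were the error, the threshold, a minimum mean log2 CPM or fold, the adjustment, and length centring. No library could be left out, because values per library were not used. Python 3.11.15, NumPy 2.4.6, SciPy 1.17.1, pandas 2.3.3 and matplotlib 3.10.9 were used. Promoters and motif shares came from RefSeq on GRCh38.p14, and transcript lengths from GENCODE v29.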

Additional observations from a re-analysis of the deposited data

Results flagged for a closer look

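The column headed A100 of the authors' deposited table has no group in the labels and was compared with MK or A1000 by no test; the report gives its values beside those of a few genes and its errors beside those of the other columns. It called 174 genes at the authors' adjusted p under 0.05, 102 higher and 72 lower after its sign was changed. LINGO1, called with MK and not with A1000, stood at 1.28 in A100 in the authors' deposited table, and IGF2R, higher with MK than with A1000, stood at 0.86. MALAT1, also higher with MK, stood at 0.02 in A100 in the authors' deposited table. What the column holds was not tested.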

How the results depend on the processing

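At an adjusted p under 0.01 the counts were 27 with MK, 440 with A1000, 21 with both, 6 with MK alone, 419 with A1000 alone and 74 differences. With a further minimum of 0.5 for the absolute log2 fold change there were 294 genes with A1000 and 257 with A1000 alone. With the errors of both columns exchanged, a choice made after the data were seen, MK called 640 genes and A1000 191. That exchange by itself raises the first count and lowers the second. The 237 differences became 11 with the undiminished error and 500 with 1 error per gene. They became 71 with the larger of both errors, 134 centred on transcript length and 32 with z divided by its scaled median absolute deviation (all 3 added later). Their count depends on the error taken. The running median error for every gene gave 245, of which 229 were among the 237. Among the 93 named genes no passing difference reversed, but centring on transcript length turned the sign of 7 small differences that did not pass in either setting (AURKB, BCL2L12, CCNB1, GADD45A, H1FX, SLCO5A1 and SPON2). Of the 93, 22 lost the call of the difference with the undiminished error, 14 with the larger of both errors and 7 with length centring. UNC5B, VIM, TXNIP, KIF2C, CSF1R and PRTN3 were among those lost with the larger of both errors. No paired analysis was possible because the table holds comparisons and no values per library; for the same reason no replicate could be left out. The cause of each change was not tested. Depth is unknown, and the direction of both columns is inferred.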
